A study of Mus musculus with 6 samples.

Results

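Macrophage identity rests on a small set of genes, of which 9 are described here: the growth factor receptor gene *Csf1r*, the transcription factor genes *Spi1*, *Cebpa*, *Maf* and *Runx1*, and the marker genes *Adgre1*, *Itgam*, *Cd68* and *Trem2*. They were taken by name, with earlier results of these data known, from 36137 genes that had at least 1 transcript in the data, and all 9 were among the 18506 genes that could be tested. RNA came from bone marrow-derived macrophages (BMDMs), cells grown from mouse marrow for 7 days in medium with L929 cell supernatant, a source of the CSF1 protein. All cultures were then kept for 8 hours without serum at 2.1% oxygen, per the labels, a treatment called hypoxia serum starvation (HSS) that models ischemia in a dish. The WT cells came from *LysM*-Cre+/- *Drp1*+/+ mice and the *Drp1* KO cells from Mɸ*Drp1* KO mice, which are *LysM*-Cre+/- with floxed *Drp1* alleles, and 3 libraries were sequenced of each. Both groups thus carried the Cre recombinase, which is expressed from the lysozyme M promoter, and both were under HSS, so no library shows these genes at normal oxygen. Mice were 8 to 12 weeks old, and the methods state that marrow of 2 mice per genotype was pooled. The labels call the libraries of a group biological replicates, but whether each came from its own pool is not stated, and p-values then measure only the spread between these libraries.

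CSF1 receptor signalling keeps macrophages alive and drives their growth from marrow progenitors. PU.1, the product of *Spi1*, is an ETS family factor that opens the enhancers and promoters of many macrophage genes, *Csf1r* and *Itgam* among them, and C/EBPα and RUNX1 act with it during the commitment of progenitors to the myeloid lineage. c-MAF, a large MAF family factor, is found in mature tissue macrophages and restrains their self-renewal. F4/80 (*Adgre1*), CD11b (*Itgam*), CD68 and TREM2 are the proteins by which mouse macrophages are commonly recognised.

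*Csf1r* and *Maf* were lower in *Drp1* KO BMDMs, each by about 30%, while *Spi1*, *Runx1* and the 4 marker genes did not pass the test and had log2 fold changes of -0.02 to 0.12. Levels are given as CPM, the estimated reads of a gene per 1000000 reads of its library after TMM normalization, which aligns the libraries on most genes. Fold changes are on the log2 scale and negative where *Drp1* KO libraries were lower, with adjusted p-values from edgeR's quasi-likelihood test with Benjamini-Hochberg adjustment over all genes tested. At an adjusted p under 0.05, 2 of the 9 genes were called, both lower, where 3.36% of all genes tested were called in either direction and 1.06% were called lower. At the study's criteria, a level over 25% above that of the other group with an unadjusted p under 0.05, 3 of the 9 were called, all lower, against 12.7% of all genes in either direction and 5.48% lower. The third gene was *Cebpa*. With libraries of the same replicate number treated as pairs, the same 3 genes passed an adjusted p under 0.05, and 12.0% of all genes did. The CPM of the groups did not overlap for 2 of the 9 genes, *Csf1r* and *Maf*, against 21.9% of all genes tested. Across the 9 genes the median log2 fold change was 0.05, and across all genes it was 0.00. An exact permutation test of 3 libraries against 3, two-sided, could not go below p = 0.1 for any of them.

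**Figure D1:**
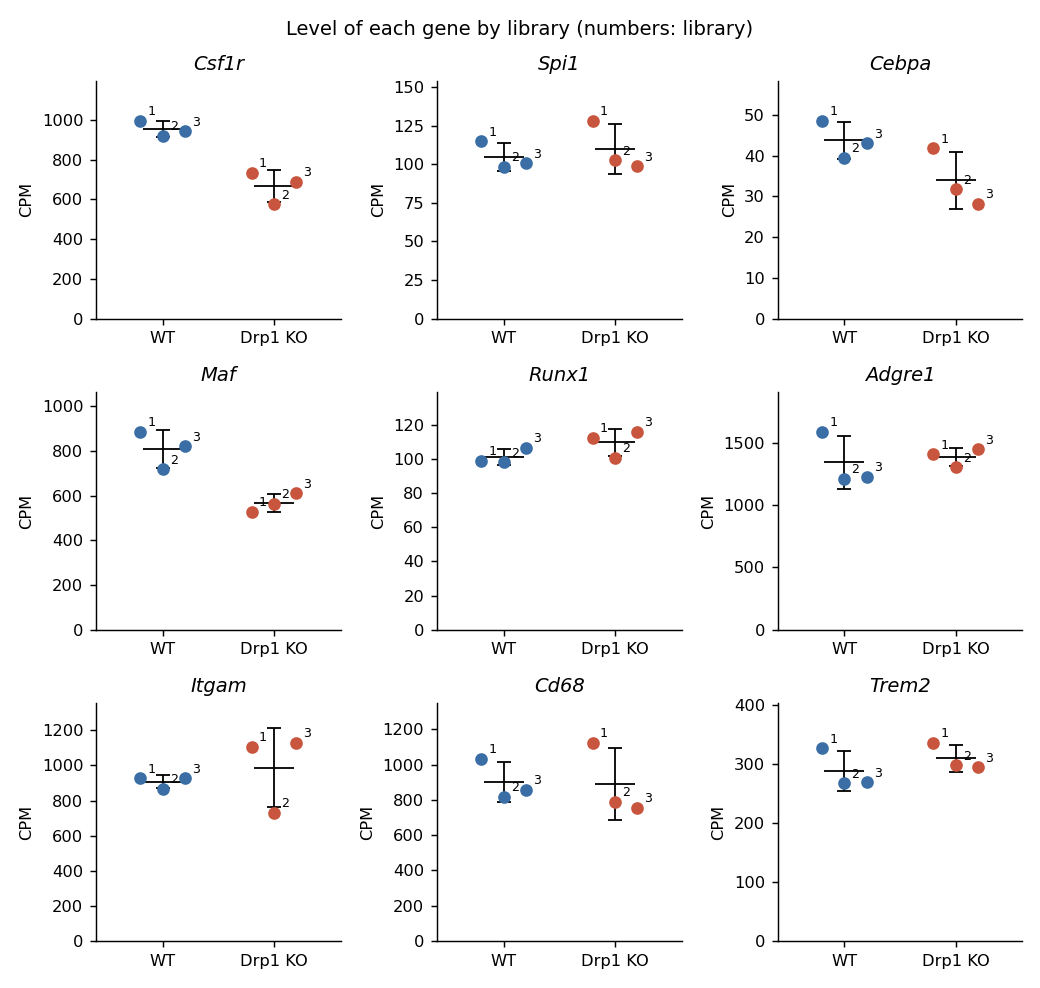
Level of each of the 9 genes in CPM (y axes from 0), with a point for each library, numbered 1 to 3, in WT (blue) and *Drp1* KO (red) BMDMs under HSS; horizontal bars are means and error bars are SD over 3 libraries. For *Csf1r* and *Maf* every *Drp1* KO point lies below every WT point, and for the other 7 genes the groups overlap.

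Depth was 23389488 to 32231206 estimated reads per library, and the 9 genes had at least 920 reads in every library, so counting error was small beside the spread between libraries. The targeted gene, *Dnm1l*, had 72.7, 69.9 and 75.1 CPM in the WT libraries and 58.7, 60.7 and 66.3 CPM in the *Drp1* KO libraries. These groups did not overlap, but the difference did not pass (log2 fold change -0.23, adjusted p = 0.248, edgeR), and summed reads cannot tell the floxed exons from the rest. The share of reads on mitochondrially encoded genes was 0.297% and 0.342% in libraries 1 of WT and *Drp1* KO and 0.494% to 0.690% in the other 4. WT library 1 was the highest WT library for 8 of the 9 genes, and *Drp1* KO library 1 was the highest of its group for 5 of them. In bulk RNA, fewer cells of a type and less RNA per cell cannot be told apart.

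*Csf1r* (ENSMUSG00000024621) encodes the receptor for CSF1 and IL-34 and lies on the plus strand of chromosome 18 of GRCm39, from 61229714 to 61266535. It was at 996, 920 and 944 CPM in WT libraries 1 to 3 and at 735, 576 and 688 CPM in *Drp1* KO libraries 1 to 3. The lowest WT library thus stood well above the highest *Drp1* KO library, and *Drp1* KO library 2 was the lowest of all. The log2 fold change was -0.52 (standard error 0.111, 95% interval -0.76 to -0.27, adjusted p = 0.0340, edgeR), a change of -30.1% with bounds of -41.1% and -17.0%. Leaving out 1 library at a time kept the direction, with fold changes from -0.60 to -0.42, but the adjusted p (edgeR) stayed under 0.05 only without *Drp1* KO library 1 (0.0208), and the library that moved the size most was *Drp1* KO library 2 (-0.42 without it). With counts scaled for transcript length in place of summed counts, the value was -0.30 and no longer passed (adjusted p = 0.209, edgeR).

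Summed counts and length-scaled counts weigh the transcripts of a gene differently, so the levels of each *Csf1r* transcript are given, as divided by kallisto, the program the authors used to quantify reads. *Csf1r*-201, which has 22 exons and encodes 977 residues, took at least 91.9% of the gene's counts in every library. It stood at 946, 869 and 887 CPM in WT cells and 689, 529 and 641 CPM in *Drp1* KO libraries, so it was lower in every *Drp1* KO library than in any WT library. *Csf1r*-202, with 21 exons and the same 977 residues, was at 30.5 ± 5.11 CPM in WT cells and 20.5 ± 0.611 CPM in *Drp1* KO BMDMs (SD over 3 libraries), also without overlap. *Csf1r*-205 is a 3-exon model of 416 bases from the 5′ end of the gene with 103 codons, and its level differed in the other direction. It had 21.1, 16.5 and 18.4 CPM in WT cells and 23.5, 22.9 and 24.8 CPM in *Drp1* KO libraries. Because TPM, the copies of a transcript per 1000000 transcripts, divides by length, this short model held 22.6 ± 1.47% of the gene's TPM in WT and 34.8 ± 2.98% in *Drp1* KO BMDMs (SD over 3 libraries), and *Csf1r*-201 held 74.3 ± 1.30% and 62.4 ± 3.88%. *Csf1r* overlaps *Hmgxb3* on the other strand, and all genes described here but *Adgre1* overlap another annotated gene. Reads of bases shared with the other strand are uncertain where strand was not used, which is not stated. *Csf1r* also overlaps *Mir6983*, and *Itgam* overlaps *Gm49368*, on the same strand. Reads of bases shared there are uncertain either way. No test is given for shares of transcripts, since the deposited tables hold no error for the division of reads.

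Among the transcription factors, *Maf* (ENSMUSG00000055435, minus strand of chromosome 8, 116409632 to 116434579) was the other gene called. Its level was 887, 720 and 822 CPM in WT cells and 528, 564 and 612 CPM in *Drp1* KO libraries. Every *Drp1* KO library was lower than every WT library, and WT library 1 was the highest while *Drp1* KO library 1 was the lowest. Its log2 change was -0.51 (standard error 0.110, 95% interval -0.75 to -0.27, adjusted p = 0.0335, edgeR), or -29.8%. It lay between -0.61 and -0.44 with 1 library left out at a time, and the adjusted p (edgeR) was then 0.0578 to 0.150, so no set of 5 libraries kept the call. With length-scaled counts it was -0.49 (adjusted p = 0.0574, edgeR). Almost all reads were given to *Maf*-202, a 1-exon transcript of 6360 bases that encodes 370 residues, with a mean of 787 CPM in WT cells and 546 CPM in *Drp1* KO BMDMs. The 3-exon *Maf*-201, which encodes 380 residues, had 22.7 CPM in WT cells and 22.5 CPM in *Drp1* KO BMDMs. Its share of the gene's TPM was accordingly 4.91 ± 1.0% in WT and 6.86 ± 0.383% in *Drp1* KO BMDMs (SD over 3 libraries).

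*Cebpa* (ENSMUSG00000034957, plus strand of chromosome 7, 34818718 to 34821353) lay between the called genes and the rest. C/EBPα is needed for the step from common progenitors to granulocyte and macrophage progenitors, and *Cebpa* was the least abundant of the 9 genes. Its levels were 48.6, 39.5 and 43.1 CPM in WT cells and 41.8, 31.8 and 28.2 CPM in *Drp1* KO libraries. *Drp1* KO library 1 lay above WT library 2, so the groups overlapped, although each *Drp1* KO library was lower than the WT library of the same number. The log2 fold change was -0.37 (standard error 0.149, 95% interval -0.70 to -0.04, unadjusted p = 0.0327, adjusted p = 0.249, edgeR). It passed with same-numbered libraries treated as pairs (-0.38, adjusted p = 0.0228, edgeR) and without *Drp1* KO library 1 (-0.55, adjusted p = 0.0396, edgeR).

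*Spi1* (ENSMUSG00000002111, plus strand of chromosome 2, 90912562 to 90946101) had 115, 98.3 and 101 CPM in WT cells and 128, 103 and 98.6 CPM in *Drp1* KO libraries. The groups overlapped, and libraries 1 were the highest in both. Its log2 fold change was 0.07 (standard error 0.120, 95% interval -0.20 to 0.34, adjusted p = 0.857, edgeR), an interval that runs from -12.7% to 26.3% in level, and without *Drp1* KO library 1 the value was -0.07. On the TPM scale the gene looked different, with 94.6, 88.8 and 98.3 TPM in WT and 118, 104 and 111 TPM in *Drp1* KO libraries, and here the groups did not overlap. By TPM the groups did not overlap for 3 of the 9 genes, *Csf1r*, *Maf* and *Spi1*, against 21.7% of all genes tested. With length-scaled counts *Spi1* had a log2 fold change of 0.33 and still did not pass (adjusted p = 0.164, edgeR).

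The transcripts of *Spi1* also differed. *Spi1*-201, the 5-exon transcript that encodes the 272 residues of PU.1 and starts at 90926441, had 106, 88.0 and 89.4 CPM in WT cells and 110, 86.3 and 79.8 CPM in *Drp1* KO libraries, with overlap. *Spi1*-204 is a 4-exon model of 544 bases whose start is annotated upstream, at 90912735, and which encodes 143 residues. It had 4.56, 5.13 and 6.63 CPM in WT cells and 12.8, 10.4 and 14.1 CPM in *Drp1* KO libraries, and every *Drp1* KO value exceeded every WT value. Its share of the gene's TPM was 21.2 ± 4.21% in WT and 36.8 ± 5.51% in *Drp1* KO BMDMs (SD over 3 libraries). *Spi1*-202, a model with no coding sequence that starts beside it at 90912753, had 4.34 ± 0.362 CPM in WT cells and 4.81 ± 0.604 CPM in *Drp1* KO BMDMs (SD over 3 libraries), and the groups overlapped.

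*Runx1* (ENSMUSG00000022952, minus strand of chromosome 16, 92398354 to 92623037) is transcribed from a distal and a proximal promoter, whose products differ at the start of the protein. Its sum over all transcripts was 98.9, 97.8 and 106 CPM in WT cells and 112, 101 and 116 CPM in *Drp1* KO libraries. The groups overlapped, while each *Drp1* KO library exceeded the WT library of the same number. The log2 fold change was 0.12 (standard error 0.0936, 95% interval -0.09 to 0.32, adjusted p = 0.624, edgeR). The 3 transcripts that start at or near the distal site held 61.3 ± 5.18% of the gene's TPM in WT and 57.3 ± 2.81% in *Drp1* KO BMDMs, and the 4 that start at or downstream of the proximal site held 38.7 ± 5.18% and 42.7 ± 2.81% (SD over 3 libraries). These shares overlapped between the groups. Part of the distal share was *Runx1*-204, a 336-base model with only 1.10 to 13.5 estimated reads per library. It held 8.05 ± 2.21% of the gene's TPM in WT and 3.54 ± 2.65% in *Drp1* KO BMDMs (SD over 3 libraries).

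The sequence before each *Runx1* start and before *Itgam* is shown. All 3 starts gave reads in every library, as did those of *Cebpa*, *Cd68* and *Trem2*, whose sequences are not printed. Bases are from RefSeq's table of promoters, in which 5 of the 9 genes have a window (*Cebpa*, *Runx1*, *Itgam*, *Cd68* and *Trem2*), and each was placed on GRCm39 by exact match. The search covered the 250 bases before each RefSeq start, and bases inside an annotated exon are not printed. For the distal *Runx1* window that start is the start of *Runx1*-207, and 175 of the 250 bases lie before the start of *Runx1*-201. For *Cd68* the RefSeq start lies 71 bases downstream of the start of *Cd68*-201, the main transcript. Capitals mark GAGGAA, the core bound by PU.1 and other ETS factors, or its reverse complement TTCCTC.
*Runx1* distal, chr16:92623038-92623212, minus strand: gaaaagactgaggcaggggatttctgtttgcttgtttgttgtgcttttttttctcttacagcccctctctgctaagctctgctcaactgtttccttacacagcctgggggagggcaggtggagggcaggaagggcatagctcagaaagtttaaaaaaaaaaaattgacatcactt
*Runx1* proximal, chr16:92494218-92494467, minus strand: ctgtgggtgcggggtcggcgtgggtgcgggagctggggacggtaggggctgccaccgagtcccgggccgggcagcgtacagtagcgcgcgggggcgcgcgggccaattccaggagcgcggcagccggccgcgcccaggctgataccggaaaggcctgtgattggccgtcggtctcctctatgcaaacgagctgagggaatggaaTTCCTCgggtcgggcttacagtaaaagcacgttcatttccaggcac
*Itgam*, chr7:127661562-127661807, plus strand: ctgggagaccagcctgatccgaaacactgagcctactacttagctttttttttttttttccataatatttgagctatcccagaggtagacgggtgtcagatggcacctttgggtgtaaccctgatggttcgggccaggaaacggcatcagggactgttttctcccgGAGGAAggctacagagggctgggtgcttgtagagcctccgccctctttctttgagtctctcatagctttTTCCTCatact
The distal *Runx1* window held no such core, the proximal window held 1 at 46 bases before the start, and the *Itgam* window held 2, at 84 and 15 bases before it. *Cd68* had 1 at 225 bases and *Trem2* 1 at 40 bases before the RefSeq start, and *Cebpa* had none. Of 32536 mouse promoter windows of the same length, 23.4% held GAGGAA on either strand. The C/EBP motif TTGCNNAA, present in 9.57% of all windows, occurred once in the *Cd68* window. It lay 43 bases before the RefSeq start, and so downstream of the start of *Cd68*-201. The RUNX motif TGTGGT (14.0% of windows) and the MAF core TGCTGA (16.1%) occurred in none of the 6 windows of these genes. A match of letters is a description and does not show binding.

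*Adgre1* (ENSMUSG00000004730, plus strand of chromosome 17, 57665573 to 57790527) encodes F4/80, an adhesion G protein-coupled receptor. It had 1587, 1210.3 and 1225 CPM in WT cells and 1408, 1304 and 1446 CPM in *Drp1* KO libraries. All *Drp1* KO libraries lay within the range of the WT libraries, which WT library 1 set apart from the other 2 WT libraries. In log2 terms the difference was 0.05 (standard error 0.124, 95% interval -0.23 to 0.32, adjusted p = 0.920, edgeR), and without WT library 2 or WT library 3 it was -0.04 or -0.03. The main transcript, *Adgre1*-202, had 1260 ± 206 CPM in WT cells and 1268 ± 61.4 CPM in *Drp1* KO BMDMs. *Adgre1*-201, which has 23 exons in place of 22 and encodes the same 931 residues, had 62.2, 52.3 and 49.8 CPM in WT cells and 82.5, 80.7 and 100.5 CPM in *Drp1* KO libraries, with no overlap. Its share of the gene's TPM was small in both groups, 3.13 ± 0.161% and 4.71 ± 0.362% (SD over 3 libraries).

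*Itgam* (ENSMUSG00000030786, plus strand of chromosome 7, 127661808 to 127717753) encodes the integrin αM chain, which pairs with the β2 chain of *Itgb2* to form CD11b/CD18. Its levels were 929, 869 and 928 CPM in WT cells and 1106, 730 and 1129 CPM in *Drp1* KO libraries. *Drp1* KO library 2 was below all WT libraries and the other 2 were above them. The log2 fold change was 0.12 (standard error 0.155, 95% interval -0.22 to 0.46, adjusted p = 0.793, edgeR). Its partner *Itgb2* had 1173, 1130 and 1108 CPM in WT cells and 1054, 787 and 960 CPM in *Drp1* KO libraries. Those groups did not overlap, yet *Itgb2* passed only when libraries of the same number were paired (log2 fold change -0.28, adjusted p = 0.264 without and 0.0468 with the pairs, edgeR). *Itgb2* was named after its values were seen. The annotated canonical transcript, *Itgam*-205, was rare, with 3.09 ± 0.426 CPM in WT cells and 0.693 ± 0.218 CPM in *Drp1* KO BMDMs (SD over 3 libraries), while *Itgam*-203 and *Itgam*-201 held nearly all the gene's reads and overlapped between the groups.

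*Cd68* (ENSMUSG00000018774, minus strand of chromosome 11, 69555037 to 69557067) encodes a heavily glycosylated protein of endosomes and lysosomes. Its levels were 1032, 818 and 858 CPM in WT cells and 1123, 788 and 756 CPM in *Drp1* KO libraries. The *Drp1* KO group held both the highest and the lowest library. edgeR gave a log2 fold change of -0.02 (standard error 0.159, 95% interval -0.38 to 0.33, adjusted p = 0.979), and its sign changed when WT library 1 (0.08) was left out, or library 2 (0.06) or 3 (0.09) of the *Drp1* KO group.

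*Trem2* (ENSMUSG00000023992, plus strand of chromosome 17, 48653429 to 48661175) encodes a lipid-sensing receptor that signals through the adaptor DAP12. It had 327, 268 and 270 CPM in WT cells and 336, 298 and 295 CPM in *Drp1* KO libraries. Each *Drp1* KO library was slightly higher than the WT library of the same number, but WT library 1 was above *Drp1* KO libraries 2 and 3. The log2 fold change was 0.10 (standard error 0.110, 95% interval -0.14 to 0.35, adjusted p = 0.729, edgeR). *Tyrobp*, which encodes DAP12, had 213 ± 22.8 CPM in WT cells and 230 ± 22.7 CPM in *Drp1* KO BMDMs (SD over 3 libraries, adjusted p = 0.707, edgeR).

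**Figure D2:**
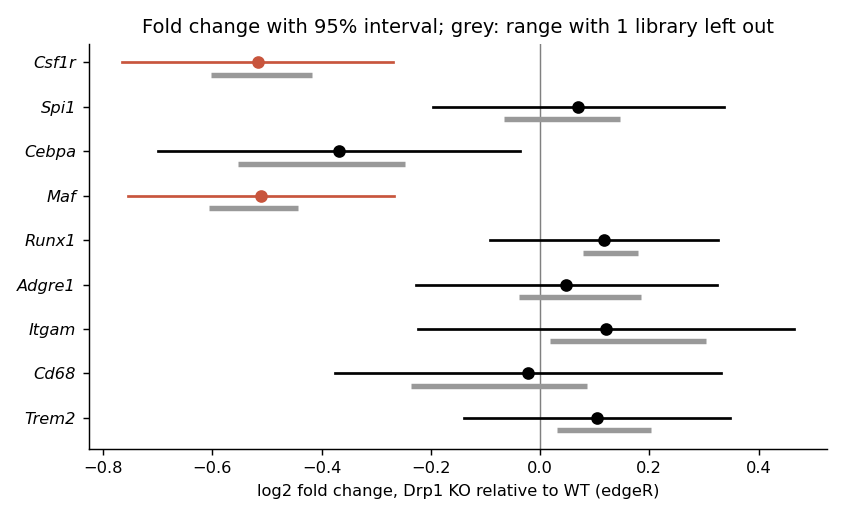
Log2 fold change of each gene, *Drp1* KO relative to WT (x axis), from edgeR: points with their 95% intervals, red where the adjusted p was under 0.05, and grey bars for the range with 1 library left out at a time. Only the intervals of *Csf1r*, *Maf* and *Cebpa* lie wholly below 0, and the grey bars of *Spi1*, *Adgre1* and *Cd68* cross it.

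Over the 9 genes, 33 of 39 transcripts had a mean of at least 10 reads and could be compared by their share of the gene's TPM. The shares did not overlap between the groups for 9 of the 33, in 5 genes, or 27.3%, where 20.0% of 35995 transcripts of all genes did not overlap. The 9 were *Csf1r*-201, *Csf1r*-205, *Spi1*-201, *Spi1*-204, *Maf*-202, *Maf*-201, *Adgre1*-201, *Itgam*-205 and *Itgam*-202. Shares within a gene add to a whole, so a larger share of 1 transcript leaves less for the others.

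**Figure D3:**
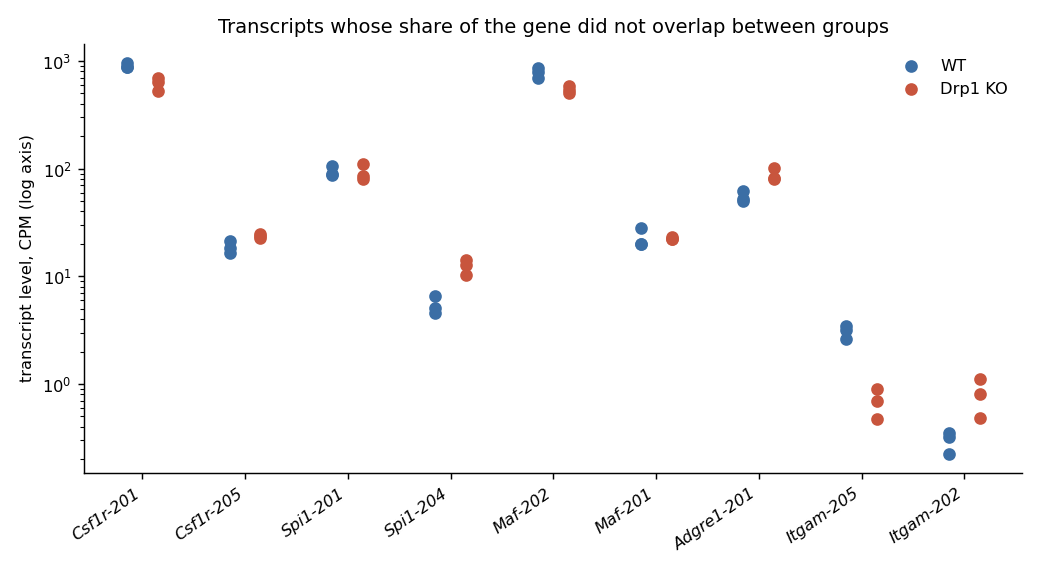
Level of each of the 9 transcripts whose share of its gene did not overlap between the groups, in CPM on a log axis, with a point per library in WT (blue) and *Drp1* KO (red) BMDMs. *Csf1r*-201 and *Maf*-202, the main transcripts of their genes, are lower in *Drp1* KO BMDMs, while the short models *Csf1r*-205 and *Spi1*-204 are higher.

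Compared per length, in TPM, the order of the genes in WT BMDMs was *Cd68* (1166 ± 119), *Adgre1* (852 ± 92.1), *Trem2* (465 ± 78.6), *Csf1r* (410 ± 24.8), *Itgam* (272 ± 19.9), *Maf* (175 ± 20.3), *Spi1* (93.9 ± 4.82), *Runx1* (32.0 ± 3.08) and *Cebpa* (17.5 ± 2.03; mean ± SD, n = 3). Marker and receptor genes thus stood above the transcription factor genes. Only the neighbours *Trem2* and *Csf1r* overlapped between libraries. The order was the same in *Drp1* KO BMDMs, but other neighbours overlapped. *Csf1r*, at 314 ± 26.4 TPM, was there below *Trem2* (490 ± 24.3 TPM) without overlap and overlapped with *Itgam* (280 ± 66.0 TPM), and *Maf*, at 118 ± 12.3 TPM, with *Spi1* (111 ± 7.00 TPM). *Cd68* (1029 ± 187 TPM) and *Adgre1* (861 ± 81.1 TPM) also overlapped there. The place of *Trem2* above *Csf1r* depends on *Trem2*-204, a 526-base model with no coding sequence. It took at most 22.2% of the gene's reads in any library. Yet it held 41.2 ± 6.23% of the gene's TPM in WT and 46.4 ± 1.17% in *Drp1* KO BMDMs (SD over 3 libraries).

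Genes that work with these factors, receptors and markers were described from lists. Of 38 other transcription factor genes of the lineage, none passed an adjusted p under 0.05 with edgeR, 9 had an unadjusted p under 0.05, and 3 passed with DESeq2 and 0 with limma-voom. Of all genes tested, 16.4% had an unadjusted p under 0.05, the share beside which such counts are to be read in each list. The median log2 fold change of these 38 genes was 0.05. With paired libraries 7 of them passed, where 12.0% of all genes did. The most abundant of the list were *Zeb2*, a repressor needed for macrophage identity, with 1084 ± 89.7 and 939 ± 26.8 CPM, and *Bhlhe41*, with 307 ± 51.7 and 361 ± 114 CPM, in WT and *Drp1* KO BMDMs (SD over 3 libraries).

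In the list of CSF1 receptor ligands, related receptors and signalling proteins, 1 of 31 tested genes passed, and it was the ligand gene *Csf1* itself. *Csf1* had 13.5, 12.7 and 12.9 CPM in WT cells and 20.9, 20.3 and 17.2 CPM in *Drp1* KO libraries, a log2 fold change of 0.58 (adjusted p = 0.0315, edgeR), so the receptor transcript was lower and the ligand transcript higher in the same libraries. The call on *Csf1* was lost without WT library 2 (adjusted p = 0.175, edgeR), WT library 3 (0.153), or library 1 (0.0537) or 2 (0.129) of the *Drp1* KO group. The other ligand gene, *Il34*, had at most 2 reads in any library. The median of the list was -0.08, and 4 of its genes passed with paired libraries.

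Among 20 genes of the TREM family, its adaptors and genes that follow TREM2 activity, 2 were higher and 2 lower, with a median of 0.10. *Ms4a6c*, a tetraspan gene of macrophages, rose from 187 ± 27.8 to 383 ± 72.5 CPM (log2 fold change 1.04, adjusted p = 0.00595, edgeR). *Treml2* rose from 2.45 ± 0.943 to 8.65 ± 2.34 CPM (1.83, adjusted p = 0.00799, edgeR) and *Treml4* fell from 3.13 ± 0.883 to 1.31 ± 0.0796 CPM (-1.25, adjusted p = 0.0315, edgeR). *Adam17*, which encodes a protease that cleaves TREM2 and the CSF1 receptor from the cell surface, fell from 296 ± 28.7 to 215 ± 15.7 CPM (-0.46, adjusted p = 0.0432, edgeR), a call that no set of 5 libraries kept. Of the 6 sets of 5 libraries, *Ms4a6c* was called in 5, *Treml2* in 4 and *Treml4* in 1. Pairing the libraries gave 6 calls among these 20 genes. Of 17 integrin and integrin-linked genes, 1 passed, *Itgb7*, from 2.11 ± 0.598 to 8.14 ± 2.71 CPM (1.95, adjusted p = 0.00635, edgeR), and the list's median was 0.00. *Itgb7* was called in 5 of the 6 sets of 5 libraries. With paired libraries 7 of these 17 passed. Among 10 tested adhesion receptor and lysosomal membrane genes none passed with edgeR, 3 had an unadjusted p under 0.05, and DESeq2 called 1 and limma-voom 0. The most abundant, *Lamp1* and *Laptm5*, had log2 fold changes of 0.21 and -0.06, and the median was 0.10. Pairing gave 1 call in this list.

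Other macrophage markers moved in both directions. Of 30 genes, 5 were higher and 3 lower at an adjusted p under 0.05, with a median of 0.12, and 15 passed with paired libraries. *Fcgr1*, which encodes the Fc receptor CD64, rose from 65.8 ± 7.22 to 167 ± 13.7 CPM (log2 fold change 1.34, adjusted p = 0.000322, edgeR), a call that held with any 1 library left out. *Clec7a*, encoding the β-glucan receptor Dectin-1, and *Siglec1*, encoding CD169, rose by 0.67 and 1.14 on the log2 scale (adjusted p = 0.00706 and 0.0232, edgeR). *Marco*, a scavenger receptor gene, fell from 254, 124 and 82.7 CPM to 41.4, 21.9 and 24.7 CPM (-2.39, adjusted p = 0.00799, edgeR). Also called were *Msr1* (0.46, higher), *Mertk* (-0.52, lower) and *Mrc1* (-0.42, lower), with adjusted p-values of 0.0340, 0.0236 and 0.0407 (edgeR). Of the 6 sets of 5 libraries, *Marco* was called in 5, *Clec7a* in 4, *Siglec1* in 3, *Msr1* and *Mertk* in 2 and *Mrc1* in 1. Summed over the 30 genes, the level was 29693 to 33267 CPM in WT cells and 30795 to 33524 CPM in *Drp1* KO libraries, so markers of the labelled cell type were abundant in every library.

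**Figure D4:**
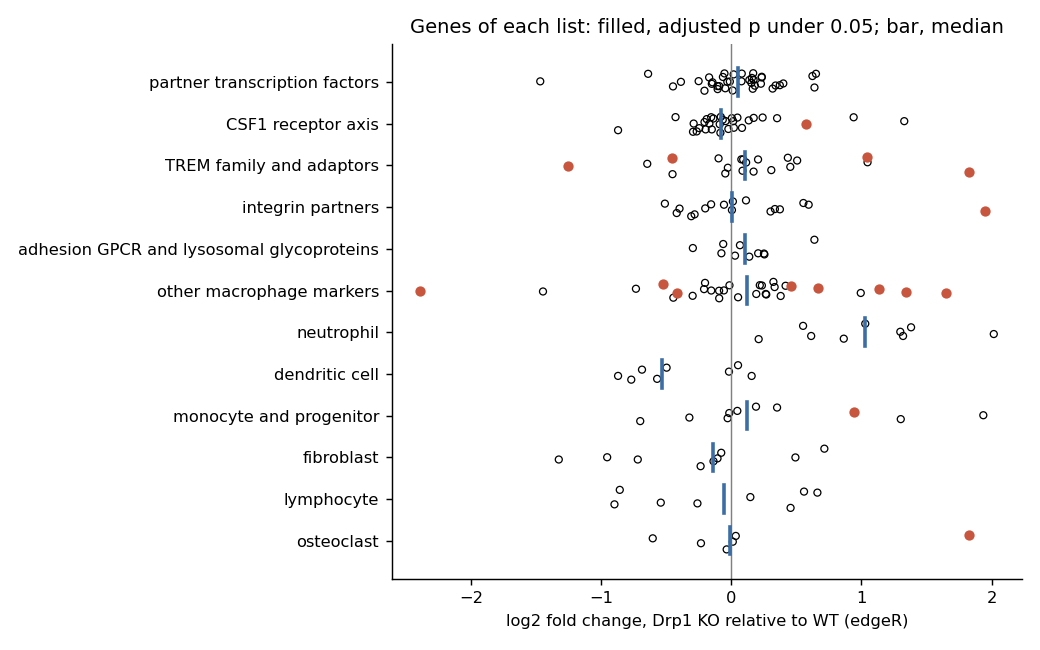
Log2 fold change, *Drp1* KO relative to WT (x axis), of the tested genes of each list, with filled red points for an adjusted p under 0.05 (edgeR), open points for the rest, and blue bars for the list's median. The neutrophil genes all lie above 0 and none is filled, while the other macrophage markers hold filled points on both sides.

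The summed level of the markers of other cells differed widely between the lists. Of 12 neutrophil genes, 9 were tested and none passed with edgeR, while 5 had an unadjusted p under 0.05 (16.4% of all genes), 2 passed with DESeq2 and 0 with limma-voom, and the same 5 passed with paired libraries. Their median was 1.03, and their summed level was 90.4 to 98.5 CPM in WT cells and 119 to 222 CPM in *Drp1* KO libraries. *Mmp8* made up most of it, with 89.0, 70.4 and 76.3 CPM in WT cells and 186, 69.3 and 174 CPM in *Drp1* KO libraries, followed by *S100a9*, with 8.59 ± 4.56 and 21.2 ± 8.87 CPM. The granule genes *Ngp* and *Ltf* and the calprotectin subunit gene *S100a8* were detected at lower levels, with 179, 128 and 243 reads over the WT libraries and 496, 289 and 731 over the *Drp1* KO libraries. Their log2 fold changes were 1.32, 1.03 and 1.38, with adjusted p of 0.107, 0.260 and 0.122 without the pairs and 0.00264, 0.0194 and 0.00145 with them (edgeR). The defining gene *Ly6g* had 0 reads in every library, which allows at most 0.129 CPM in the shallowest, and *Elane* and *Retnlg* had 4 or fewer reads. *Csf1r* and *Maf* were lower in the same libraries in which the sum of these markers was higher, and the part of such cells in that result was not tested.

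Of 10 dendritic cell genes, 8 were tested and none passed with edgeR (2 at an unadjusted p under 0.05, 1 with DESeq2, 0 with limma-voom). Their median was -0.54 and their sum 15.4 to 18.0 CPM in WT cells and 9.26 to 12.5 CPM in *Drp1* KO libraries, with *Clec10a* and *Zbtb46* at 9.93 ± 2.63 and 2.20 ± 0.234 CPM in WT cells and 6.15 ± 0.249 and 1.27 ± 0.429 CPM in *Drp1* KO BMDMs, and *Cd209a* at 0 reads in every library. Of 10 monocyte and progenitor genes 1 passed, *Spn*, which encodes CD43, from 18.5 ± 4.23 to 35.7 ± 6.86 CPM (log2 fold change 0.95, adjusted p = 0.0229, edgeR), with a median of 0.12 and a sum of 278 to 371 CPM in WT cells and 249 to 365 CPM in *Drp1* KO libraries. This list includes the cell cycle genes *Mki67* and *Top2a*, so its sum is not a level of monocyte and progenitor markers alone. Of 9 tested fibroblast genes none passed with edgeR, DESeq2 or limma-voom (1 at an unadjusted p under 0.05), the median was -0.14, and *Thy1* and *Col1a1* had 15.2 ± 4.52 and 0.822 ± 0.281 CPM in WT cells and 12.9 ± 1.56 and 0.777 ± 0.0968 CPM in *Drp1* KO BMDMs. Of 12 lymphocyte genes 8 were tested and none passed with edgeR (2 at an unadjusted p under 0.05, 1 with DESeq2 and 1 with limma-voom), and their median was -0.06, or -0.22 with genes at the floor of 3 reads set to their bound. *Cd4*, which macrophages can also express, made up most of their sum of 315 to 333 CPM in WT cells and 134 to 259 CPM in *Drp1* KO libraries, at 313, 319 and 303 CPM in WT cells and 137, 245 and 119 CPM in *Drp1* KO libraries (-0.90, adjusted p = 0.0595 without and 0.00228 with the pairs, edgeR). *Cd79b* had 4.07 ± 1.18 and 5.95 ± 0.623 CPM, and *Ncr1* had 0 reads in every library. Of 6 tested osteoclast genes 1 passed, *Acp5*, which encodes the tartrate-resistant acid phosphatase, from 9.96 ± 4.91 to 35.2 ± 11.5 CPM (1.83, adjusted p = 0.0153, edgeR), and the median was -0.01. The sum of the osteoclast list was the highest of these 6 lists, at 916 to 1080 CPM in WT cells and 987 to 1078 CPM in *Drp1* KO libraries. *Atp6v0d2*, which encodes a subunit of the vacuolar proton pump, made up most of it, at 934 ± 83.1 and 940 ± 33.5 CPM (0.01, 95% interval -0.22 to 0.24, adjusted p = 0.984, edgeR). *Spn* was called in 3 and *Acp5* in 4 of the 6 sets of 5 libraries. Pairing the libraries gave 1 call in the dendritic cell list and 3 in the monocyte and progenitor list. It gave 0 in the fibroblast list, 1 in the lymphocyte list and 1 in the osteoclast list. The part of these markers in the results was not tested.

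As a description over the 6 libraries, the genes whose log2 CPM followed *Csf1r*, *Spi1* and *Adgre1* most closely were looked up among the 7954 genes that averaged 10 CPM or more. *Csf1r* was followed by *Eno1* (Pearson r = 0.995), a glycolytic enzyme gene, and *Tln1* (r = 0.994), encoding the integrin activator talin, and 126 genes had r over 0.95. *Spi1* was followed by *Lpin2* (r = 0.998) and *Ndufs7* (r = 0.995), with 140 genes over 0.95. *Adgre1* was followed by *Man1b1* (r = 0.977) and *Zxdc* (r = 0.974), with 13 genes over 0.95. The points share 6 libraries of 2 genotypes, so many genes reach such values. Over the same 6 libraries, r between *Csf1r* and *Maf* was 0.868, between *Csf1r* and *Cebpa* 0.801, and between *Csf1r* and *Spi1* 0.033.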

How the data were processed

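Poly(A) RNA of 6 BMDM libraries (3 WT, 3 *Drp1* KO) was sequenced from both ends of the fragments. The authors quantified transcripts of GRCm39 with kallisto (0.46.1, from the submitters' processing notes, which also list DESeq2 1.44.0) and deposited estimated counts and TPM values per transcript, neither scaled between libraries. The deposited length and effective length are other columns of the authors' tables. Length was used for transcript lengths only, and effective length was used with TPM to make the length-scaled counts. Strand and bias settings are not given in the sources used here.

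The 9 genes and all lists were chosen with earlier results of these data known. Of 116873 transcripts, 116159 (99.4%) matched GENCODE GRCm39, and estimated counts were summed per gene and rounded. Other transcripts took up to 0.575% of the counts of a library. Genes with at least 10 counts in total were tested with edgeR 4.0.16 (R 4.3.3, TMM, quasi-likelihood test, genotype only), tested first on simulated data. The floor of 3 counts was 0.0936 to 0.129 CPM, for counting error only. Named list genes were up to 5 with the smallest p among those called or, where none was called, the 2 most abundant; exceptions are stated, and some genes of the lists are not reported here. The likeness measure was Pearson's r of log2 CPM (prior count 2).

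Alternatives were DESeq2 1.42.0, limma-voom (limma 3.58.1), other size factors and filters, length-scaled counts, leaving out each library, and same-numbered libraries as pairs. Deviations from the group mean correlated at 0.510, 0.204 and 0.298 between same-numbered libraries (12248 genes), each over 0.1, the level set for taking numbers as pairs. The data set libraries 1 apart but do not clearly separate libraries 2 and 3: r was 0.326 for WT library 2 with *Drp1* KO library 3 and 0.0802 for WT library 3 with *Drp1* KO library 2. The chi-square per degree of freedom between libraries was at least 10.5, so none was a copy of another.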

Additional observations from a re-analysis of the deposited data

How the results depend on the processing

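The test as reported called 621 of all genes, 2 of the 9 genes described and 16 list genes. DESeq2 called 1155 of all genes and 33 list genes, a filter of only 1 count gave 1065 and 34, and the replicate block, in which same-numbered libraries are pairs, gave 2212 and 51. With length-scaled counts 0 of the 9 genes were called, with *Csf1r* at -0.30 and *Maf* at -0.49 (log2). With the replicate block *Cebpa* passed at -0.38, and no other call on the 9 genes changed. With 1 library left out, calls ranged over 181 to 904 of all genes, 0 to 2 of the 9 genes and 3 to 22 list genes. The log2 fold change then ranged from -0.60 to -0.42 for *Csf1r*, -0.61 to -0.44 for *Maf*, -0.55 to -0.25 for *Cebpa*, -0.066 to 0.15 for *Spi1*, -0.038 to 0.18 for *Adgre1* and -0.24 to 0.085 for *Cd68*, of which the last 3 changed sign. Some of these changes come with fewer libraries; the cause of the others was not tested. *Csf1r* and *Maf* were lower in each of the 14 alternatives run and called in 8 and 7 of them. By the study's criteria the 9 genes gave 2 or 3 calls in every alternative. For the other 6 genes, with 3 libraries a group, differences within their 95% intervals are not excluded. The size of difference that could have been called was not tested.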
